A study of Mus musculus with 6 samples.

Results

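The 10 genes described here encode the junctions of the intercalated disc, the end-to-end contact between heart muscle cells. They were chosen by name, as Gja1, Dsp, Pkp2, Dsg2, Dsc2, Jup, Cdh2, Ctnna1, Ctnna3 and Tjp1, and each matched exactly 1 of the 25901 rows of the deposited expression table. RNA was measured in whole hearts of 3 SRAKO mice (SRAKO2365, SRAKO2371 and SRAKO2372) and 3 WT mice (WT2368, WT2379 and WT2378). SRAKO is the submitters' name for the knockout of Sra1, whose transcript, the steroid receptor RNA activator, works with nuclear receptors as a coactivator. Both genotypes had received isoproterenol, which stimulates beta-adrenergic receptors and causes hypertrophy, over 4 weeks, so the effect of the drug itself was not measured. The labels used here give no strain, age, sex, litter or batch and do not say how the allele was made or in which cells it acts, nor that the hearts came from separate litters, so p-values measure the spread between these samples.

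Heart muscle cells are held together at the disc by desmosomes, which anchor intermediate filaments, and by adherens junctions, which anchor the actin of the outermost sarcomeres. Gap junctions beside them pass the electrical impulse from cell to cell. In mature heart the desmosomal and adherens proteins mingle in a mixed junction, and inherited loss of desmosomal proteins in people is a known cause of arrhythmogenic cardiomyopathy. Of the 10 genes, 9 carried the annotation of the intercalated disc in the deposited table, Ctnna3 being the exception, and 9 carried that of arrhythmogenic right ventricular cardiomyopathy, Tjp1 being the exception.

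None of the 10 junction genes differed between SRAKO and WT hearts past the threshold, and the sizes measured were small. On the log2(FPKM + 1) scale 9 of 10 were lower in SRAKO, where 46.5% of all tested rows were, and the differences ran from -0.21 for Tjp1 to 0.01 for Gja1 around a median of -0.11. The median over all 10201 rows tested was 0.01. FPKM is read coverage per kilobase of transcript, scaled for the size of the library, so levels can be compared between genes. In limma with Benjamini-Hochberg adjustment over all rows, 0 of the 10 genes had an adjusted p under 0.05 (adjusted p = 0.999 for each), against 0.0196% of all rows, all of those lower. At an unadjusted p under 0.05 there were also 0 members, against 3.46% of all rows (1.56% lower and 1.9% higher). SRAKO and WT values did not overlap in 2 members, Dsg2 and Tjp1, both with SRAKO below WT, a pattern found in 3.76% of all rows. Over all rows, SRAKO lay above WT without overlap in 4.28%, making 8.05% in either direction.

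Sra1, the targeted gene, had an FPKM of 1.96, 1.78 and 2.05 in the SRAKO hearts, against 4.40, 6.31 and 4.23 in WT2368, WT2379 and WT2378. All SRAKO values lay below all WT values, with a log2 difference of -1.01 (limma, adjusted p = 0.258), although 1 of the 6 transcripts in this row belongs to the neighbouring gene. Steps between the lowest values put 1 FPKM at about 8297 to 13096 bases of alignment on each kilobase of transcript, depending on the heart. These steps are approximate, since they rest on 9 to 23 low rows per heart, of which 41.2% to 69.6% lay on the step. The summed FPKM of 9 cardiomyocyte markers was between 11892 and 11968 in SRAKO hearts and between 10884 and 13397 in WT hearts. These markers were listed as ventricular, but not all are confined to the ventricle. All 9 of these markers were above 0 in every heart, 3 lower and 6 higher in SRAKO with a median log2 difference of 0.04. Of the 9, SRAKO lay below WT without overlap in 2, Ryr2 (32.2 in SRAKO, 36.5 in WT) and Ttn (7.48 in SRAKO, 10.1 in WT). That pattern was found in 3.76% of all rows. WT2368 and SRAKO2371 stood apart in mitochondrial ribosomal RNA and in the row of CT010467.1 and AY036118. That row was at 3003 in SRAKO2371, against 273 and 512 in the other SRAKO hearts. In WT2368 it was at 6242, against 595 and 409 in the other WT hearts. The row of mt-Rnr1 was at 1896 in SRAKO2371 against 879 and 1122 in the other SRAKO hearts, and at 4548 in WT2368 against 1061 and 963 in the other WT hearts.

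**Figure D1:**
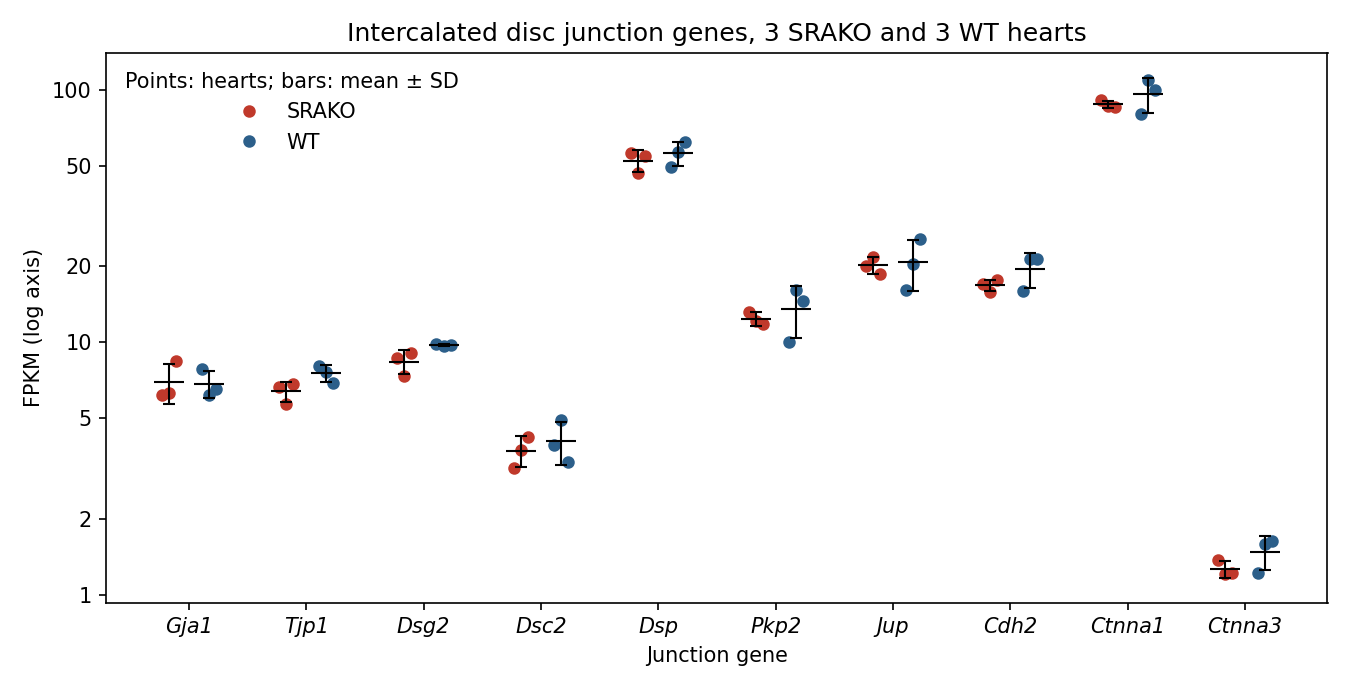
FPKM of the 10 junction genes on a log axis, with each heart as a point, SRAKO left of WT, and bars for the mean ± SD (n = 3 each). The genes span from about 1.37 for Ctnna3 to 91.9 for Ctnna1, and the genotypes overlap in all but Dsg2 and Tjp1.

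Levels ordered the genes in nearly the same way in every heart. By mean FPKM over the 6 hearts the order was Ctnna1 (91.9), Dsp (54.2), Jup (20.4), Cdh2 (18.2), Pkp2 (13.0), Dsg2 (9.07), Tjp1 (6.96), Gja1 (6.91), Dsc2 (3.88) and Ctnna3 (1.37). The higher gene of each neighbouring pair was higher in all 6 hearts, except that Jup exceeded Cdh2 in 5 of 6 and Tjp1 exceeded Gja1 in 4 of 6. Jup and Cdh2, and likewise Tjp1 and Gja1, were therefore not separated beyond the spread between hearts. Among the tested rows Ctnna1 ranked 288 by level and Ctnna3 ranked 9065, so the pair of alpha-catenins lay near opposite ends of the range. On those approximate steps, the mean depth over Ctnna3 was 10.1 to 18.7 aligned bases per position and over Ctnna1 663 to 1288. Ctnna1 made up 40.5 ± 1.16% of the summed FPKM of the 10 genes in SRAKO and 40.7 ± 2.07% in WT (SD, n = 3 each), and Dsp 24.2 ± 1.46% and 23.8 ± 1.31%.

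Gja1 encodes connexin 43, the channel protein of ventricular gap junctions, and Tjp1 encodes ZO-1, the scaffold that binds the tail of connexin 43 at the rim of the gap junction plaque. The sequences before the starts of both genes are shown because this pair binds at the same plaque and holds the 2 ends of the range of differences. They come from RefSeq on GRCm38.p6 and cover the 250 bases before the RefSeq start, chr10:56377050-56377299 on the plus strand for Gja1 and chr7:65371245-65371494 on the minus strand for Tjp1. The Tjp1 window lies within the span of the gene given below, since its RefSeq start is 5 bases from the start of an annotated transcript and 156.5 kb from the outermost one. Capitals mark matches on either strand to the AP-1 site TGANTCA and the GC box GGGCGG.
Gja1: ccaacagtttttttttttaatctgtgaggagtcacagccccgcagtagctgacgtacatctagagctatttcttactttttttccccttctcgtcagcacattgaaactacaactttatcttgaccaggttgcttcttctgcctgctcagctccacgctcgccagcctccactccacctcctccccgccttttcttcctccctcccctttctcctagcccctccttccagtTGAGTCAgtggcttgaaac
Tjp1: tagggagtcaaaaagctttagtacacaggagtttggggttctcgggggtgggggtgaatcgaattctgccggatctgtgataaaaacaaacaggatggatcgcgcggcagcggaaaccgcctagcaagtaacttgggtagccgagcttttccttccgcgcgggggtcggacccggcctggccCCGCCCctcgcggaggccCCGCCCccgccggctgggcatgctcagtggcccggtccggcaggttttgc
The Gja1 window held 1 AP-1 site and no GC box, and the Tjp1 window held 2 GC boxes and no AP-1 site. Among 32851 windows of the same length, 6.75% held the AP-1 site and 32.7% the GC box, and the 2 motifs share no bases here. The palindrome of the glucocorticoid and androgen receptors, the palindrome of the oestrogen receptor and the single element AGAACA had no match in either window. They were held by 0.00913%, 0.0639% and 16.1% of all windows. G and C made up 63.2% of the Tjp1 window, against a median of 52.4% over all windows. Windows were also available for Dsp, Jup and Ctnna3, and none of these held an AP-1 site. GC boxes numbered 4 for Dsp and 2 for Jup, genes with log2 differences of -0.09 and -0.02. The first of 3 Ctnna3 windows held 1 GC box. Any relation between these motifs and the differences was not tested.

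Gja1 (chromosome 10, 56377330 to 56402513, plus strand of GRCm38) had an FPKM of 6.18, 6.27 and 8.43 in SRAKO2365, SRAKO2371 and SRAKO2372, against 7.83, 6.19 and 6.55 in WT2368, WT2379 and WT2378. Each genotype had 1 heart well above its other hearts, and the groups overlapped over nearly their whole range. Its log2 difference was 0.01 ± 0.14 (SE), and the 95% interval of -0.31 to 0.34 covers differences of either sign. The direction turned with the hearts used, with 0.10 when WT2368 was omitted, -0.11 when SRAKO2372 was, and -0.0055 after quantile normalization.

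Tjp1 (chromosome 7, 65296165 to 65527781, minus strand) was at 6.63, 5.71 and 6.83 in the SRAKO hearts, against 8.08, 7.62 and 6.90 in WT2368, WT2379 and WT2378. All SRAKO hearts lay below all WT hearts, but SRAKO2372 and WT2378 were only just apart. Mean FPKM was 6.39 ± 0.595 in SRAKO and 7.53 ± 0.591 in WT (SD, n = 3 each), 84.8% of WT. The log2 difference was -0.21 ± 0.10 (SE), with a 95% interval of -0.45 to 0.03 (limma, unadjusted p = 0.0819, adjusted p = 0.999). With 1 heart omitted it lay between -0.26 and -0.14, and it was -0.09 without both WT2368 and SRAKO2371. Endothelial and epithelial cells also make ZO-1, and in whole-heart RNA fewer cells of a type and less RNA per cell cannot be told apart.

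**Figure D2:**
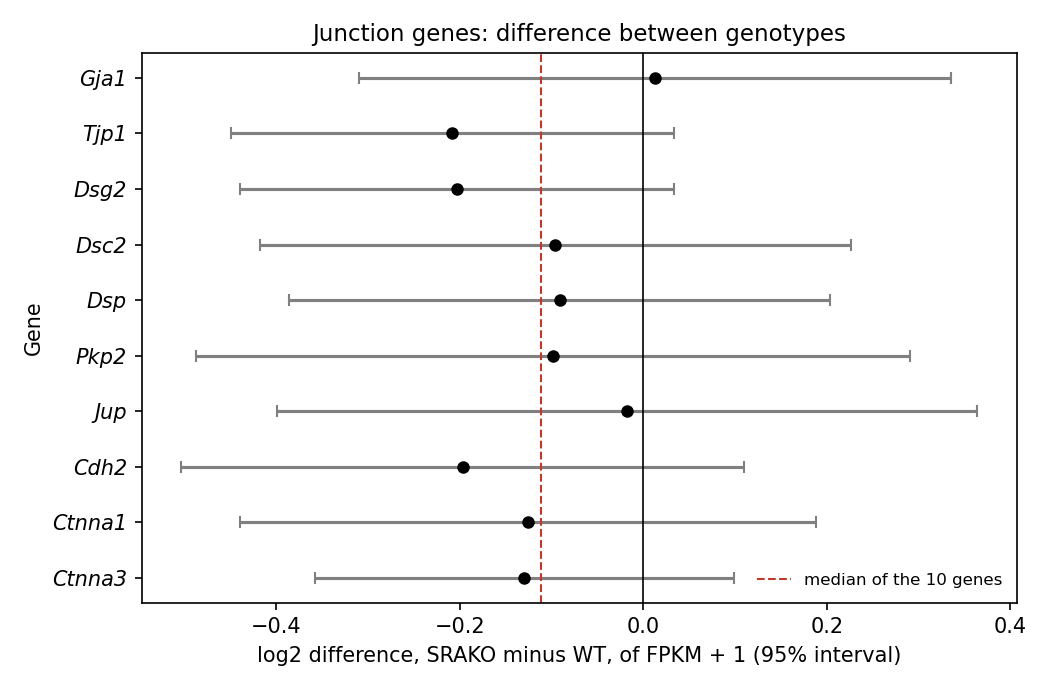
Log2 difference between SRAKO and WT hearts, on the FPKM + 1 scale, for each junction gene, with its 95% interval from limma (3 hearts per genotype). All 10 intervals include 0, and the dashed line marks the median of -0.11.

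Dsg2 and Dsc2 encode desmoglein 2 and desmocollin 2, the cadherins whose outer domains join desmosomes across the gap between cells. Dsg2 (chromosome 18, 20558074 to 20604521, plus strand) had an FPKM of 8.68, 7.36 and 9.09 in the SRAKO hearts, against 9.83, 9.68 and 9.76 in WT2368, WT2379 and WT2378. The WT hearts were almost level, with an SD of 0.0760, and all 3 SRAKO hearts lay below them with an SD of 0.905. The SRAKO mean of 8.38 was 85.9% of the WT mean of 9.76, and the log2 difference was -0.20 ± 0.10 (SE), with a 95% interval of -0.44 to 0.03 (limma, unadjusted p = 0.0834, adjusted p = 0.999). SRAKO2371 was the lowest heart, and without it the difference was -0.12.

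Dsc2 (chromosome 18, 20030633 to 20059554, minus strand) was at 3.18, 3.74 and 4.22 in the SRAKO hearts, against 3.91, 4.90 and 3.35 in WT2368, WT2379 and WT2378. The genotypes overlapped, and WT2379 was the highest heart. The log2 difference was -0.10 ± 0.14 (SE), and without WT2379 it was 0.02. Dsg2 exceeded Dsc2 in every heart, by a ratio of 2.29 ± 0.398 in SRAKO and 2.47 ± 0.472 in WT (SD, n = 3 each).

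Inside the cell, the desmosomal plaque consists of Jup, Pkp2 and Dsp. Jup encodes plakoglobin, an armadillo protein that links the cadherin tails to the plaque and also occurs in adherens junctions. Jup had an FPKM of 20.1, 21.7 and 18.6 in the SRAKO hearts, against 16.1, 20.4 and 25.6 in WT2368, WT2379 and WT2378. The SRAKO hearts lay within the WT range, and the log2 difference of -0.02 (SE 0.16) became 0.14 without WT2378 and -0.18 without WT2368. Plakophilin 2, the product of Pkp2, packs desmoplakin into the plaque. Pkp2 was at 13.2, 12.2 and 11.8 in the SRAKO hearts, against 9.98, 16.2 and 14.5 in WT2368, WT2379 and WT2378. Here too the SRAKO hearts lay inside the WT range, which WT2368 stretched downward. The log2 difference was -0.10 (SE 0.17), with -0.29 without WT2368 and 0.03 without WT2379.

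Desmoplakin, the product of Dsp, ties the plaque to desmin filaments and was the most abundant desmosomal RNA. Dsp had an FPKM of 56.0, 46.6 and 54.7 in the SRAKO hearts, against 49.4, 56.6 and 61.9 in WT2368, WT2379 and WT2378. SRAKO2371 and WT2368 were the low hearts of their genotypes, and the groups overlapped. Means of 52.5 ± 5.09 in SRAKO and 56.0 ± 6.26 in WT (SD, n = 3 each) gave a log2 difference of -0.09 (SE 0.13). Dsp exceeded Pkp2 by a ratio of 4.24 ± 0.411 in SRAKO and 4.24 ± 0.726 in WT. Jup lies on chromosome 11 from 100368958 to 100397763, Pkp2 on chromosome 16 from 16213318 to 16272712 and Dsp on chromosome 13 from 38151294 to 38198577.

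Adherens junctions hold N-cadherin, the product of Cdh2, and the alpha-catenins that connect it to actin, alpha-E-catenin from Ctnna1 and alpha-T-catenin from Ctnna3. Cdh2 (chromosome 18, 16588877 to 16809246, minus strand) had an FPKM of 16.97, 15.8 and 17.6 in the SRAKO hearts, against 15.96, 21.3 and 21.4 in WT2368, WT2379 and WT2378. WT2379 and WT2378 stood above every SRAKO heart, and WT2368 lay among them. The log2 difference was -0.20 ± 0.13 (SE), with a 95% interval of -0.50 to 0.11 (limma, unadjusted p = 0.176, adjusted p = 0.999). Without WT2368 it was -0.33, with an unadjusted p of 0.00503 and an adjusted p of 0.714 in limma.

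Ctnna1 (chromosome 18, 35118859 to 35254779, plus strand) was at 90.8, 85.9 and 85.7 in the SRAKO hearts, against 79.8, 109.5 and 99.5 in WT2368, WT2379 and WT2378. WT2368 was the lowest of all hearts and the other WT hearts were the highest. SRAKO averaged 87.5 ± 2.88 and WT 96.3 ± 15.1 (SD, n = 3 each), a log2 difference of -0.13 (SE 0.14) that was -0.25 without WT2368 and -0.03 without WT2379. Ctnna3 (chromosome 10, 63430098 to 65003667, plus strand), which in mouse is made mainly in heart and testis, was at 1.37, 1.20 and 1.21 in the SRAKO hearts, against 1.22, 1.59 and 1.63 in WT2368, WT2379 and WT2378. Its log2 difference of -0.13 (SE 0.10) is understated at such low FPKM by the added 1. With a pseudocount of 0.1 it was -0.21. Ctnna1 exceeded Ctnna3 by a ratio of 69.4 ± 2.85 in SRAKO and 65.1 ± 3.99 in WT.

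**Figure D3:**
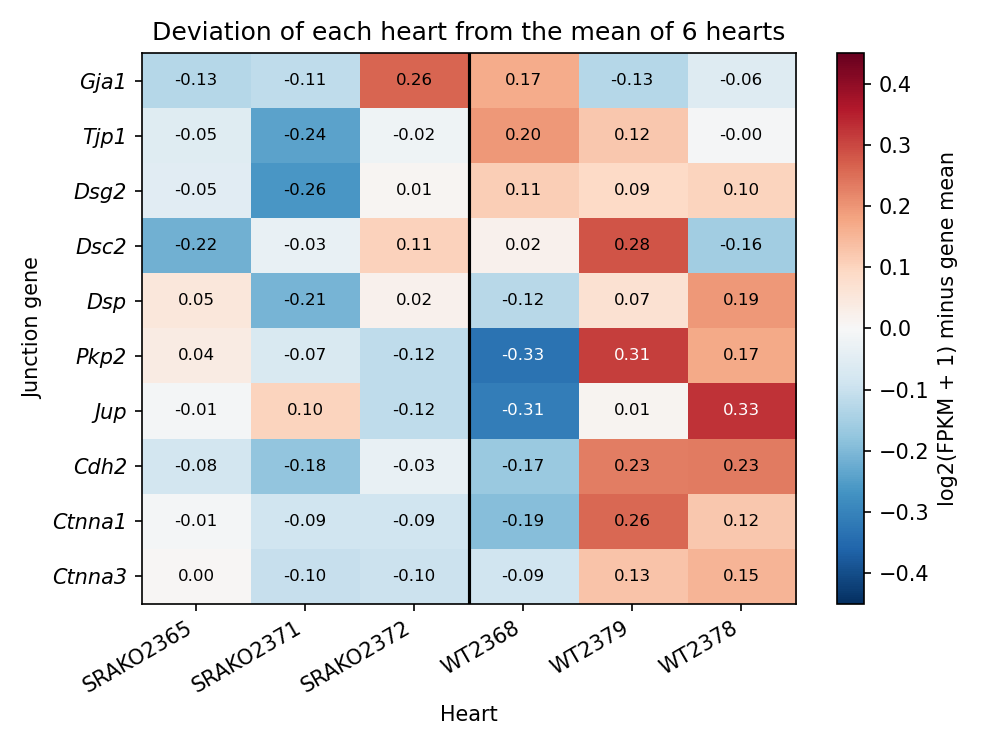
Deviation of each heart (columns, SRAKO left of the line and WT right of it) from the mean of 6 hearts on the log2(FPKM + 1) scale, for each junction gene. Blue marks values below the mean and red values above it; WT2379 and WT2378 are mostly red, while WT2368 and SRAKO2371 hold the deepest blue.

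Single hearts set much of the pattern among the 10 genes. WT2379 was above the gene mean in 9 of 10 genes and WT2378 in 7, while WT2368 was above it in 4, and it was the lowest WT heart in 6. SRAKO2371 was above the mean in 1 gene and was the lowest of all 6 hearts in 5. The median deviation over the genes was -0.11 in SRAKO2371, -0.03 in both SRAKO2365 and SRAKO2372, -0.11 in WT2368, 0.13 in WT2379 and 0.14 in WT2378, on the log2 scale. The SD was smaller in SRAKO than in WT in 7 of the 10 genes. This count was not made over all rows, so it is not shown to be particular to these genes. WT2368 and SRAKO2371, the hearts lowest by median deviation, were those high in mitochondrial ribosomal RNA and in the row of CT010467.1 and AY036118. WT2368 was not low in every gene, being the highest of all 6 hearts in 2, Dsg2 and Tjp1. The part of these RNAs in the values of the 10 genes was not tested.

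Leaving out WT2368 moved the median difference of the 10 genes to -0.19, and leaving out WT2379 moved it to -0.06. The median over all rows moved in the same directions, to -0.04 and 0.04. Without WT2368, 4 members (Cdh2, Pkp2, Ctnna1 and Ctnna3) had an unadjusted p under 0.05, all lower, against 5.23% of all rows lower at that level in the same fit. Without both WT2368 and SRAKO2371 these were 3 members (Cdh2, Pkp2 and Ctnna1), against 4.53% of all rows. No member passed the adjusted threshold in either fit. When each heart was scaled to the same level of the 9 cardiomyocyte markers, the median was -0.09 and 8 of 10 genes were lower. The median over all rows rose with this scaling as well, from 0.01 to 0.03.

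**Figure D4:**
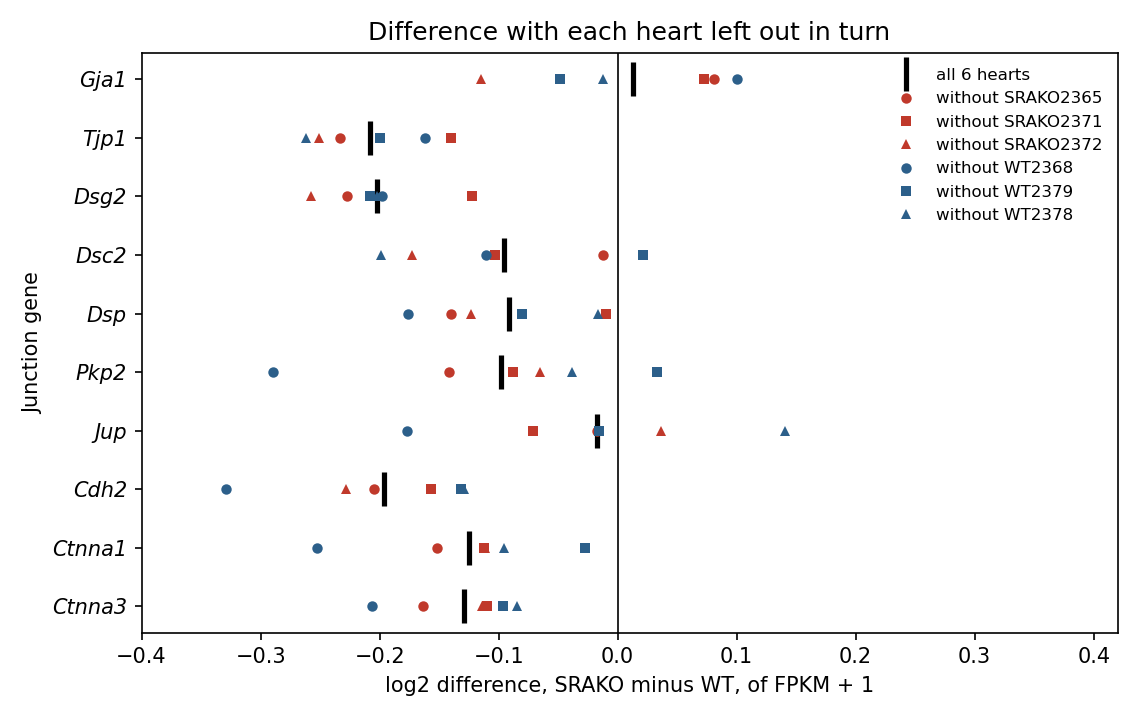
Log2 difference between SRAKO and WT hearts for each junction gene with all 6 hearts (black bar) and with each heart left out in turn (red, an SRAKO heart; blue, a WT heart). Dsg2, Tjp1, Cdh2, Ctnna1, Ctnna3 and Dsp stay below 0 in all 6 refits, whereas Gja1, Dsc2, Pkp2 and Jup cross it.

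The choice of genes did not use length or position, and the 10 genes are spread over 3 classes of length and 6 chromosomes. Over the 10091 tested rows with an annotated length (110 had none), the median difference was 0.04 for rows whose longest annotated transcript had up to 2000 bases, 0.01 up to 4000, -0.01 up to 6000 and -0.04 beyond that. SRAKO lay below WT without overlap in 2.51%, 3.11%, 4.39% and 8.24% of these rows. Tjp1 and Dsp fall in the longest class and Dsg2, Dsc2 and Cdh2 in the next, with Gja1, Pkp2, Jup, Ctnna1 and Ctnna3 between 2000 and 4000 bases. The part of transcript length in the differences of Tjp1 and Dsg2 was not tested. Of the 10 genes, 4 lie on chromosome 18, as Sra1 does. Ctnna1 is 1.41 Mb from Sra1, Dsg2 16.1 Mb, Dsc2 16.6 Mb and Cdh2 19.9 Mb. These 4 had log2 differences of -0.13, -0.20, -0.10 and -0.20.

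Other genes of the disc were counted in the same way. Of 30 listed, 29 passed the filter on low values, 21 lower and 8 higher in SRAKO with a median of -0.09, and 0 passed the adjusted threshold in limma. At an unadjusted p under 0.05 there were 2, both lower, against 1.56% of all rows lower at that level. SRAKO lay below WT without overlap in 2 of the 29 and above it in 1, against 3.76% and 4.28% of all rows. Afdn, which encodes afadin, the actin-binding partner of nectins, had an FPKM of 2.15, 1.41 and 1.75 in the SRAKO hearts, against 2.58, 2.65 and 2.79 in WT2368, WT2379 and WT2378. The genotypes did not overlap, and they differed by -0.42 ± 0.11 (SE) on the log2 scale (limma, unadjusted p = 0.00656, adjusted p = 0.999). Xirp2, an actin-binding Xin repeat protein of the disc, averaged 15.9 ± 1.07 in SRAKO and 21.4 ± 4.75 in WT (SD, n = 3 each), a difference of -0.38, and overlapped because WT2378 was at 16.3.

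Ctnnb1 encodes beta-catenin, which bridges N-cadherin to alpha-catenin and also carries Wnt signals, and shares its row with Mir7090. It was at 25.6, 15.8 and 13.96 in SRAKO2365, SRAKO2371 and SRAKO2372, against 22.3, 25.6 and 25.4 in WT2368, WT2379 and WT2378. SRAKO2365 matched the WT hearts and the other SRAKO hearts lay well below them, so the difference of -0.43 had an SE of 0.21 (limma, unadjusted p = 0.0722, adjusted p = 0.999). Gjc1, the connexin 45 of nodal cells, averaged 2.55 ± 0.315 in SRAKO and 2.54 ± 0.275 in WT. Csrp3, the muscle LIM protein, differed by -0.32 and Sorbs2, an adaptor between actin and junctions, by -0.23. Sorbs2 was lower in all SRAKO hearts than in any WT heart, but only just, with 7.59 in SRAKO2365 and 7.67 in WT2378. Nectin2, an adhesion receptor, and Tmem43, a nuclear envelope protein tied to arrhythmogenic cardiomyopathy, differed by 0.17 and 0.19. Nectin2 was higher in all SRAKO hearts than in any WT heart, but only just, with 6.33 in SRAKO2365 and 6.26 in WT2378.

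**Figure D5:**
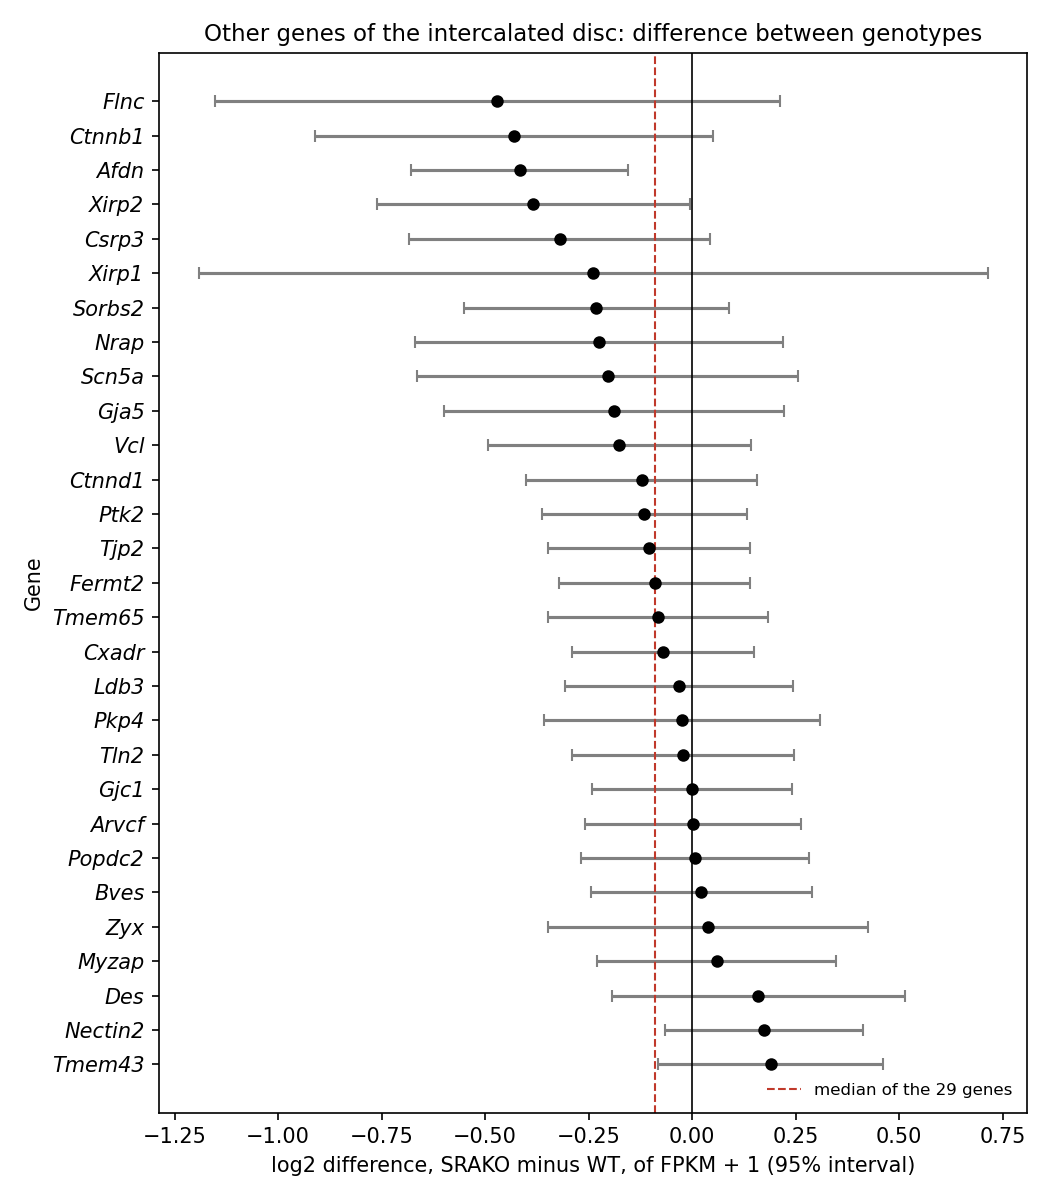
Log2 difference between SRAKO and WT hearts, on the FPKM + 1 scale, with 95% intervals from limma, for 29 further genes of the intercalated disc. Points run from -0.47 to 0.19, and only the intervals of Afdn and Xirp2 exclude 0 before adjustment.

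Wider annotations in the deposited table, chosen after the values were seen, had medians nearer to 0. Of 39 tested rows annotated to the intercalated disc, which include 9 of the genes above, 25 were lower and 14 higher in SRAKO with a median of -0.07. Of 42 tested rows annotated to arrhythmogenic right ventricular cardiomyopathy, 24 were lower and 18 higher with a median of -0.03. In both, 0 passed the adjusted threshold in limma. At an unadjusted p under 0.05 each had 1 lower and 1 higher row, against 1.56% and 1.9% of all rows. SRAKO lay below WT without overlap in 4 and 6 of these rows and above it in 0 and 3. Over all rows these shares were 3.76% and 4.28%. The lower row was Slc8a1 in both, at 12.1 ± 3.02 in SRAKO and 22.6 ± 3.69 in WT, a difference of -0.86 (limma, adjusted p = 0.999).

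Markers of other cell types were also measured. All 8 atrial cardiomyocyte markers were lower in SRAKO, with a median of -0.34. Their summed FPKM was 3004 to 3542 in SRAKO and 2515 to 8480 in WT, mostly from Nppa and highest in WT2379. Bmp10 differed most, by -1.51 (SE 0.93), with 8.15 in SRAKO2371 against 133 and 83.1 in SRAKO2365 and SRAKO2372. In WT2368, WT2379 and WT2378 it was at 94.0, 254 and 97.5. At an unadjusted p under 0.05 there were 2 atrial markers, both lower, against 1.56% of all rows lower at that level. Both are potassium channel subunits, Kcnj3 (2.32 ± 0.665 in SRAKO, 3.37 ± 0.138 in WT) and Kcnj5 (8.75 ± 1.07 in SRAKO, 11.2 ± 1.02 in WT). In both, SRAKO lay below WT without overlap, a pattern found in 3.76% of all rows. None of the 8 passed the adjusted threshold in limma (adjusted p = 0.999 for Kcnj3 and Kcnj5).

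Of 8 endothelial markers, 6 were lower and 2 higher in SRAKO with a median of -0.03. Their sum was 279 to 293 in SRAKO and 265 to 276 in WT, but without Fabp4, which adipocytes also express, it was 161 to 181 in SRAKO and 168 to 183 in WT. The 9 tested endothelial junction genes had a median of 0.04, with 4 lower and 5 higher in SRAKO and 0 past the adjusted threshold in limma. Macrophage markers were higher in 6 of 7, with a median of 0.14 and sums of 116 to 130 in SRAKO and 95.3 to 115 in WT. All 3 tested neutrophil markers and all 5 tested adipocyte markers were higher in SRAKO. Neutrophil markers summed to 3.19 to 52.5 in SRAKO and 1.20 to 10.6 in WT. Adipocyte markers summed to 27.4 to 119 in SRAKO and 29.5 to 41.1 in WT, highest in SRAKO2371, with SRAKO2365 below every WT heart. Of 6 smooth muscle and pericyte markers 5 were higher, of 7 fibroblast markers 3 were, and all 5 erythroid markers were lower. At an unadjusted p under 0.05 in limma, 2 neutrophil markers and 1 smooth muscle and pericyte marker were higher, against 1.9% of all rows. Mesothelial and epithelial markers summed to 2.59 to 5.73 in SRAKO and 2.96 to 4.87 in WT, with all 7 listed rows above 0 in some heart. The part of these cell types in the junction genes' values was not tested. Desmosomal and cadherin relatives of epithelia were near 0: of 11 in the table, only periplakin, Ppl, passed the filter, at 2.84 ± 0.458 in SRAKO and 2.42 ± 0.305 in WT, and Dsc1, Dsc3 and Cdh1 stayed at an FPKM of at most 0.0370.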

How the data were processed

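RNA of 6 hearts was sequenced, 3 SRAKO and 3 WT, and the authors deposited 1 table of FPKM values per gene. The submitters' processing notes list the tools HISAT2 2.0.4, StringTie 1.3.4d, edgeR and cutadapt 1.9 and name the genome build hg38, although the identifiers are those of mouse genes and 99.6% of the 81263 transcript identifiers occur in a mouse annotation, which supplied the gene coordinates given here. Use of strand is not given in the sources used here, so reads of genes overlapping on opposite strands (at Dsp, Dsg2, Cdh2, Ctnna1, Ctnna3 and Tjp1) cannot be told apart.

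FPKM values are not counts, and whole reads were not recovered from the steps between low values, so the main test is on a log scale and count models were left out. Rows reaching an FPKM of 1 in 3 or more hearts (10201 of 25901) were tested as log2(FPKM + 1) with limma 3.58.1 in R 4.3.3, with a mean-variance trend, no covariate, and Benjamini-Hochberg adjustment over all tested rows at 0.05. The pipeline was tested on simulated data, with shifts larger than any difference of the 10 members, so differences of their size were not examined. A fold change on this scale understates that of low genes. The 10 members and the gene lists were chosen with earlier results of these data known. Named are all members, Sra1, Ctnnb1, Gjc1, the 6 other disc genes with the smallest unadjusted p, and some markers. Ryr2, Ttn, Bmp10, Kcnj3, Kcnj5, Kcna5, Cacna2d1, Fabp4, Slc8a1, Ppl, Dsc1, Dsc3 and Cdh1 were chosen after their values were seen. So was the row of CT010467.1 and AY036118. The alternatives changed the pseudocount, the filter, the scaling, the weights and the hearts used.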

Additional observations from a re-analysis of the deposited data

How the results depend on the processing

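In limma, 0 of the 10 members and 0 of the other disc genes passed the adjusted threshold under any of 14 alternatives, and the lowest adjusted p of a member was 0.714. Over all rows, 2 passed; this count was 1 with a pseudocount of 0.1, 1 with the filter at an FPKM of 5, 0 with no filter and 0 without both WT2368 and SRAKO2371. Leaving out 1 heart gave 0 to 6, with 0 without WT2368, 4 without SRAKO2371, 5 without WT2379 and 6 without WT2378. At an unadjusted p under 0.05, all rows numbered 353, against 114 with the filter at 5, 919 with no filter, 675 with array weights, 684 without WT2368 and 649 without WT2368 and SRAKO2371. Members at that level numbered 1 with array weights and 1 with quantile normalization (Cdh2 in both, lower). Of all rows in those fits, 4.23% and 2.42% were lower at that level. The median of the members stayed between -0.19 and -0.06. The direction turned for Gja1, at -0.0055 with quantile normalization and -0.11 to 0.10 with 1 heart left out. With 1 heart left out it also turned for Pkp2 (-0.29 to 0.033), Dsc2 (-0.20 to 0.022) and Jup (-0.18 to 0.14). Jup was at 0.0039 when scaled to the cardiomyocyte markers. The cause of these turns was not tested. That scaling, chosen after seeing the data, split the unadjusted calls into 110 lower and 311 higher, against 159 and 194. Summing rows per symbol changed nothing, since each member has 1 row. No paired analysis was possible because the hearts of the 2 genotypes share no replicate number. With 3 hearts per genotype, the intervals run from 70.6% to 129% of WT over the 10 genes on the FPKM + 1 scale, and are wider in FPKM itself for low genes such as Ctnna3.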

Other observations

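Ratios between partners, each from the same heart, were as follows. Jup over Ctnnb1, the pair of armadillo proteins that bind cadherin tails, was 1.16 ± 0.328 in SRAKO and 0.842 ± 0.147 in WT (SD, n = 3 each). In SRAKO2365 this ratio was 0.786, inside the WT range. Gja1 over Tjp1 was 1.09 ± 0.152 in SRAKO and 0.910 ± 0.0854 in WT, with 0.932 in SRAKO2365 lying inside the WT range. Ctnna1 over Cdh2 was 5.22 ± 0.298 in SRAKO and 4.93 ± 0.250 in WT. Gja1 over Gjc1, connexins of working muscle and of nodal cells, was 2.78 ± 0.758 in SRAKO and 2.73 ± 0.585 in WT. Among other cadherins, Cdh13, a cadherin anchored to the membrane by lipid, averaged 19.8 ± 0.974 in SRAKO and 22.5 ± 3.57 in WT, and was the only tested gene of 7 listed relatives. These ratios and genes were described after the values were seen, and no test was run on the ratios.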
